A study of Homo sapiens with 26 samples.

Results

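The 9 genes CD40, CD27, TNFRSF13B, TNFRSF13C, TNFRSF14, FAS, TNFRSF10B, TNFRSF8 and TNFRSF1B encode receptors of the TNF receptor superfamily that B cells use. They were taken by gene symbol, 9 of the 58592 genes of the series, and each was followed through every library. RNA was measured in OCI-Ly7 and SUDHL4, established human lymphoma lines derived from germinal centre B cells, after CRISPR interference against POU2AF1 or POU2F2. POU2F2 encodes the octamer-binding transcription factor OCT2 and POU2AF1 encodes its coactivator OCA-B. All libraries, controls included, come from cells with a lentivirally delivered dCas9-BFP-KRAB under the SFFV promoter, a Cas9 without nuclease activity that represses the promoter a guide leads it to. A second lentivirus carried the guides. The 26 files gave 22 libraries once repeats were merged: 6 of OCI-Ly7 with POU2AF1 guides, 8 of OCI-Ly7 with POU2F2 guides and 4 of OCI-Ly7 with non-targeting guides, then 1, 2 and 1 of SUDHL4 with the same guides. OCI-Ly7 was grown in Iscove's medium and SUDHL4 in RPMI-1640, each with fetal bovine serum, glutamine and antibiotics, so line and medium cannot be told apart. A time of 48 h is given for 3 of the 26 files and none for the others. The labels do not say whether a line is 1 clone or whether replicates are separate cultures, so the p-values reflect spread among these libraries that may be technical.

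Receptors of this family are trimeric or oligomeric membrane proteins with cysteine-rich repeats outside the cell, and they bind ligands of the TNF family. Most signal through TRAF adaptors to the canonical or the alternative NF-kB pathway, while those with a death domain can recruit FADD and caspase-8. In germinal centres CD40 takes T cell help, the receptors for BAFF and APRIL carry survival signals, FAS can remove cells, and the HVEM receptor TNFRSF14, often lost in these lymphomas, binds BTLA.

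The targeted genes were low where the labels place the guides. In CPM, read counts scaled to library size with TMM factors, POU2AF1 was at 11% of the control mean in OCI-Ly7 POU2AF1 knockdown and 18.0% in SUDHL4 POU2AF1 knockdown, and POU2F2 at 29% in OCI-Ly7 and 15% in SUDHL4 POU2F2 knockdown. POU2F2 was at 150% of the control value in CPM in the SUDHL4 POU2AF1 knockdown library. In deposited TPM it was not higher there, at 115 TPM, against 125 TPM in the control library. The files held 24959865 to 53155548 estimated reads, of which mitochondrially encoded genes took 6.95% to 25.5%, the highest in OCI-Ly7 POU2AF1 knockdown replicate 1. All 7 B cell markers had at least 10 reads in every library, and of the 8 germinal centre markers 6 did in OCI-Ly7 and 8 in SUDHL4. CD3D, CD8A, GNLY, LYZ and MPO had at most 5 reads in any library, though other T and NK cell and myeloid markers were detected. In OCI-Ly7 3 of the 12 T and NK cell markers had at least 10 reads in every library of each group. The 12 summed to 23.7 to 54.1 TPM after POU2AF1 knockdown and 16.1 to 81.2 TPM after POU2F2 knockdown. The OCI-Ly7 control libraries had 41.5 to 57.5 TPM, and none of the 4 tested was called in either comparison. Of the 8 myeloid markers, 3 had at least 10 reads in the SUDHL4 POU2AF1 knockdown library. In that line 2 did in both POU2F2 knockdown libraries and 1 in the control library. No myeloid marker had at least 10 reads in every library of an OCI-Ly7 group. In bulk RNA, fewer cells with a transcript and less of it per cell cannot be told apart.

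Levels were first set side by side per length, as deposited TPM summed over the transcripts of a gene. In OCI-Ly7 control libraries CD40 stood at 56.4 ± 9.71 TPM and CD27 at 45.5 ± 6.26 TPM (SD, n = 4). TNFRSF10B followed at 20.0 ± 5.84 TPM, TNFRSF13C at 16.9 ± 7.36 TPM, TNFRSF13B at 9.43 ± 2.39 TPM, FAS at 8.43 ± 2.67 TPM and TNFRSF14 at 7.37 ± 2.34 TPM. TNFRSF8 and TNFRSF1B were close to 0, at 0.07 and 0.05 TPM. Each gene in this order overlapped its neighbour in range over the 4 libraries except at the step between CD27 and TNFRSF10B and the step between TNFRSF14 and TNFRSF8. CD40 was first and CD27 second by mean TPM in all 3 OCI-Ly7 groups, and TNFRSF13B, FAS, TNFRSF14, TNFRSF8 and TNFRSF1B kept ranks 5 to 9.

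The SUDHL4 order was led by CD27, the receptor for CD70 that marks memory and germinal centre B cells. The SUDHL4 control library had 158 TPM of CD27, 31.0 of TNFRSF10B, 31.0 of TNFRSF13C, 29.8 of CD40, 2.05 of FAS, 2.04 of TNFRSF14, 0.46 of TNFRSF8, 0.10 of TNFRSF13B and 0.01 of TNFRSF1B. With no second control library in SUDHL4, the spread of these values is not known. Over all libraries, CD27 ran from 23.3 to 53.7 TPM in 18 OCI-Ly7 libraries and from 158 to 213 TPM in 4 SUDHL4 libraries, with no overlap. TNFRSF13B, FAS and TNFRSF13C were also separate: 7.19 to 22.4, 5.38 to 28.2 and 4.13 to 26.2 TPM in OCI-Ly7, against 0.10 to 0.82, 0.97 to 2.81 and 31.0 to 79.1 TPM in SUDHL4. How many of all genes separate the lines in this way was not counted. Between the control libraries alone, 23.5% of 18918 genes were called in a test given below.

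**Figure D1:**
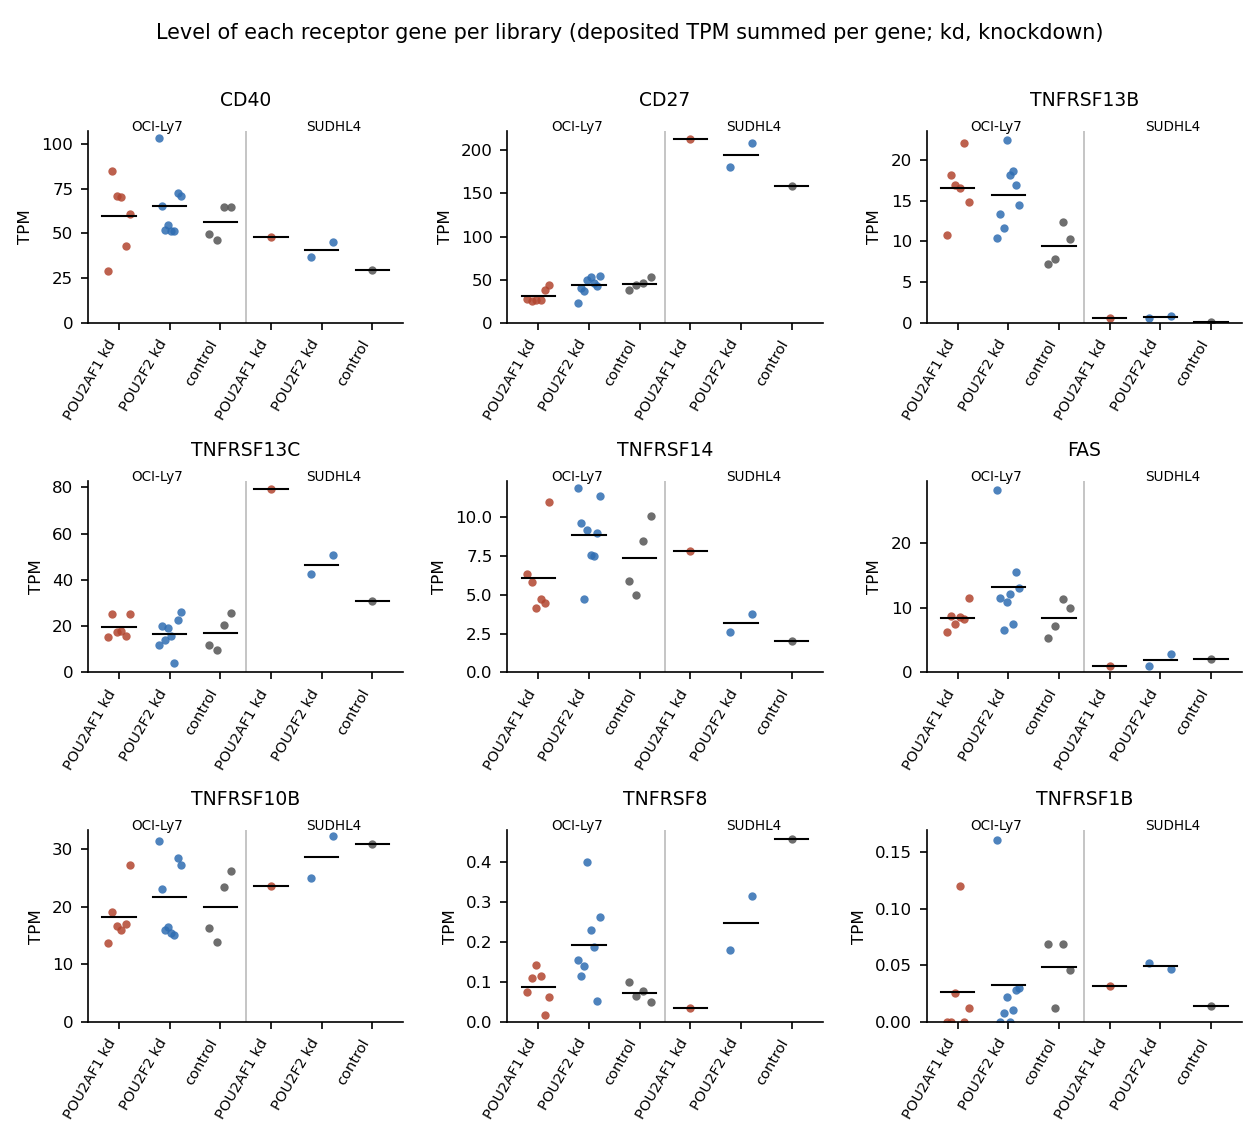
Level of each of the 9 receptor genes in TPM (vertical axis, own scale per gene) in every library, by line and guide; points are libraries and bars are group means. CD27 and TNFRSF13C lie higher in all SUDHL4 libraries than in all OCI-Ly7 libraries, and TNFRSF13B and FAS lie lower. How many other genes separate the lines was not counted.

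Sequence is given for the exons and promoters on which the results on TNFRSF13B, FAS, CD40 and TNFRSF14 bear. In 3 of the genes an annotated exon decides which protein a transcript encodes. Exon 2 of TNFRSF13B, 138 bases at chr17:16952446-16952583 on the minus strand, encodes the first cysteine-rich region of the receptor TACI. Exon 6 of FAS, 63 bases at chr10:89010753-89010815 on the plus strand, encodes the membrane-spanning region, and protein-coding transcripts without it encode a soluble form. Exon 6 of CD40, 62 bases at chr20:46126640-46126701 on the plus strand, lies ahead of the membrane-spanning region, and since its length is not a multiple of 3, transcripts without it change reading frame there. The exons are from GENCODE release 29 on GRCh38, with capitals for the exon and lower case for 15 bases of each neighbouring exon in the spliced transcript.
TNFRSF13B exon 2: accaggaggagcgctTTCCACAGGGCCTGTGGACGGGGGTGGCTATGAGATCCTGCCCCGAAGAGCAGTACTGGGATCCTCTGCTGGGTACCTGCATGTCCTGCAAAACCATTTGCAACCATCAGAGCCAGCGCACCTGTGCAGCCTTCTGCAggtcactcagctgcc
FAS exon 6: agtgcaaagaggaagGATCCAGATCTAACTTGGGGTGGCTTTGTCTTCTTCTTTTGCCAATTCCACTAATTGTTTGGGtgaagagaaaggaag
CD40 exon 6: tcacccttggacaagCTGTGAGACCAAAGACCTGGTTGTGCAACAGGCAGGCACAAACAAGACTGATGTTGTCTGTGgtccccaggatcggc

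RefSeq promoter windows (GRCh38.p14, from 250 bases before to 50 bases after the transcription start) were at hand for 6 of the 9 genes, 8 windows in all. Those of TNFRSF13B, at chr17:16972069-16972368 on the minus strand, and TNFRSF14, at chr1:2556121-2556420 on the plus strand, are printed because these genes had the highest fold changes upwards in SUDHL4 POU2AF1 knockdown among the 9. Capitals start at the transcription start.
TNFRSF13B promoter: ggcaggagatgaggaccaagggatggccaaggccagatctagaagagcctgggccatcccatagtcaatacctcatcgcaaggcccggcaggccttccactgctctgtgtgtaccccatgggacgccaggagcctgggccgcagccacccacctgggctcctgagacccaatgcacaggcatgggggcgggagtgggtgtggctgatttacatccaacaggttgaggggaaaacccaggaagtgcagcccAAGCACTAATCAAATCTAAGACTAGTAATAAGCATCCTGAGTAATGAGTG
TNFRSF14 promoter: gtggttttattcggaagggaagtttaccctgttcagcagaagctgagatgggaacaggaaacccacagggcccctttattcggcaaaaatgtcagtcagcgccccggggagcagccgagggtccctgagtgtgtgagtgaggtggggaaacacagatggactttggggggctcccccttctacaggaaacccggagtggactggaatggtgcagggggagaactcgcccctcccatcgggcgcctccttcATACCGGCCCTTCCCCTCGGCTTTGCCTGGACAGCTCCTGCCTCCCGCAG
The octamer ATGCAAAT, the motif that OCT2 binds, was searched on both strands. None of the 8 windows held it, and 1.77% of all 35116 windows did (623). The CD27 window ends upstream of the GENCODE start of that gene on chromosome 12 (6444867). No match says only that these letters are not in these windows.

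Knockdown responses were read from edgeR's quasi-likelihood test over all genes of a line, with the batch as a term in OCI-Ly7, and a gene was called at a Benjamini-Hochberg adjusted p below 0.05. Each adjusted p below is from this test unless another is named. TNFRSF1B, which encodes TNFR2, had 0 to 8 reads in every library and was not tested, which left 8 receptor genes. In OCI-Ly7 none of the 8 was called after POU2AF1 knockdown, where 0.887% of 16001 genes were, and none after POU2F2 knockdown, where 0% of genes were (283 had an unadjusted p below 0.05, and DESeq2 called 5). None was called between the knockdowns, against 0.162% of genes. All 8 OCI-Ly7 POU2F2 knockdown libraries are in batch 2, with 2 of the 6 POU2AF1 knockdown libraries and 3 of the 4 control libraries. The knockdowns therefore meet only in batch 2, and levels pooled over batches differ between guides in batch as well. The POU2AF1 and POU2F2 comparisons of a line share its control libraries, and their values are set side by side without a test of likeness.

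Of the receptors for BAFF and APRIL, TNFRSF13B was the OCI-Ly7 gene with the clearest separation. TACI, its product, binds both ligands. TNFRSF13B had a lowest level of 11.5, a median of 12 and a highest level of 16.9 CPM in 6 POU2AF1 knockdown libraries, and 8.16, 12.5 and 17.9 CPM in 8 POU2F2 knockdown libraries. Its control libraries had 5.49, 6.76, 9.45 and 9.10 CPM. Every POU2AF1 knockdown library lay above every control library, and the POU2F2 knockdown libraries overlapped the controls in 2 replicates, 1 and 3. How many of all genes have POU2AF1 knockdown and control libraries without overlap was not counted.

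The TNFRSF13B difference of POU2AF1 knockdown from control was 0.91 ± 0.23 on the log2 scale (SE), 1.88-fold, with an adjusted p of 0.085. It was 1.15 within batch 1 (adjusted p = 0.12, 4 libraries against 1) and 0.78 within batch 2 (adjusted p = 1.00, 2 against 3). The labels divide batch 2 further by a series mark, s0 to s3. With that mark as the block in place of the batch the difference was 0.88 ± 0.17 and was called (adjusted p = 0.00431, with 5.59% of genes called), and the DESeq2 Wald test also called it (0.92, adjusted p = 0.00656, with 2.04% of genes called). Without control replicate 1 the difference was 0.77 (adjusted p = 1.00), and with the series block 0.70 (adjusted p = 0.163), and no other library of the comparison, left out in turn, ended the series-block call. Without POU2F2 knockdown replicate 3, which enters the fit but not the comparison, it was called (0.92, adjusted p = 0.0366). After POU2F2 knockdown it was 0.66 ± 0.21 (adjusted p = 1.00), and 0.77 ± 0.15 with the series block (adjusted p = 0.0769, where 0.0812% of genes were called). The summed level of the 8 germinal centre markers was 224 to 333 TPM in POU2AF1 knockdown and 373 to 508 TPM in POU2F2 knockdown, against 498 to 606 TPM in control libraries, and its part in the receptor results was not tested. After POU2AF1 knockdown 4 of the 6 tested germinal centre markers and 1 of the 7 B cell markers were called lower and none higher. There 0.887% of all genes were called. After POU2F2 knockdown no marker of either list was called. The direct TNFRSF13B difference of POU2F2 from POU2AF1 knockdown was -0.24 ± 0.23 (adjusted p = 1.00).

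Within a batch or series mark, libraries could also be set against the control library of their own mark. There are 4 such blocks, with 12 knockdown libraries in all, and the libraries of a block share 1 control. In CPM, TNFRSF13B was above its block's control in 12 of 12 knockdown libraries, and so were FAS and TNFRSF10B. Of all genes tested, 2.91% were above in all 12. Some TNFRSF10B steps were close to none. In batch 1 its POU2AF1 knockdown libraries had 45.82, 38.80, 36.64 and 36.81 CPM, against 36.62 CPM in the control library. In series s3 TNFRSF10B had 62.7 CPM in the POU2F2 knockdown library, against 61.2 CPM in the control library. CD27 was below in all 6 POU2AF1 knockdown libraries, as 13% of genes were, and in 2 of 6 POU2F2 knockdown libraries. The CD27 step was close to none in POU2AF1 knockdown replicate 1 of batch 1, with 33.80 CPM, against 34.08 CPM in the control library. In series s0 TNFRSF13B had 16.9 CPM in the POU2AF1 knockdown library and 17.9, 14.6 and 16.6 CPM in the POU2F2 knockdown libraries, against 6.76 CPM in the control library. In series s2 the step was smaller, with 11.6 CPM after POU2AF1 knockdown and 11.6 and 13.4 CPM after POU2F2 knockdown, against 9.45 CPM in the control library.

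**Figure D2:**
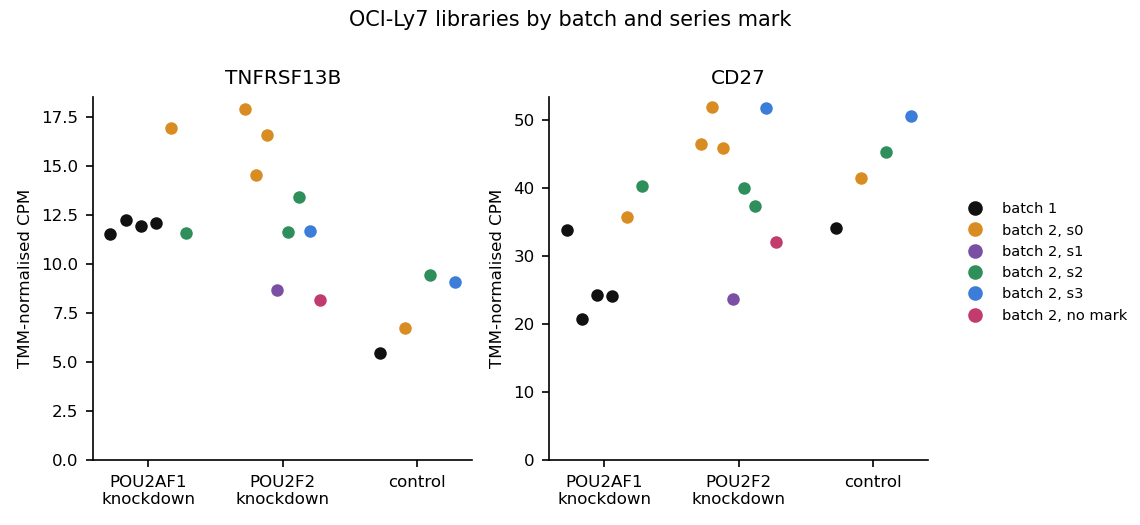
TNFRSF13B and CD27 in OCI-Ly7 libraries in TMM-normalised CPM (vertical axes from 0), by guide, with colours for batch 1 and for the series marks of batch 2. TNFRSF13B lies above the control of the same colour in every knockdown library that has one, and CD27 lies below it in every POU2AF1 knockdown library. The closest of these CD27 libraries, in batch 1, has 33.80 CPM, against 34.08 CPM in its control.

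TNFRSF13C, which encodes the BAFF receptor that mature B cells need to survive, varied widely in OCI-Ly7. It had a lowest level of 47.5, a median of 58.7 and a highest level of 72.1 CPM in POU2AF1 knockdown libraries, and 12.6, 52.3 and 76.5 CPM in POU2F2 knockdown libraries. The control libraries had 35.6, 30.3, 59.9 and 74.5 CPM. The groups overlapped, and the differences from control were 0.37 ± 0.40 after POU2AF1 knockdown and -0.06 ± 0.34 after POU2F2 knockdown (both adjusted p = 1.00). The POU2F2 knockdown library at 12.6 CPM was replicate 6, whose series s0 companions with the same guides had 57.0 and 47.5 CPM. Without it the POU2F2 difference was 0.08 (adjusted p = 1.00).

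Among the costimulatory receptors, CD27 had a negative point estimate after POU2AF1 knockdown, and neither CD27 nor CD40 was called. CD27 had a lowest level of 20.7, a median of 29 and a highest level of 40.3 CPM in POU2AF1 knockdown libraries, and 23.7, 42.9 and 51.9 CPM in POU2F2 knockdown libraries. The control libraries had 34.1, 41.5, 45.4 and 50.6 CPM. Batch 1 was low in CD27 in both groups, so the pooled ranges overlapped, while within each batch every POU2AF1 knockdown library was below every control library. The gaps were narrow. In batch 1 POU2AF1 knockdown replicate 1 had 33.80 CPM, against 34.08 CPM in the control library. In batch 2 the highest POU2AF1 knockdown library had 40.3 CPM, against 41.5 CPM in the lowest control library, of another series mark. Batch 1 has 1 control library, and how many of all genes separate in this way was not counted. The CD27 difference after POU2AF1 knockdown was -0.32 ± 0.20 (adjusted p = 1.00), with -0.38 in batch 1 (adjusted p = 0.84) and -0.24 in batch 2 (adjusted p = 1.00). After POU2F2 knockdown it was -0.18 ± 0.18 (adjusted p = 1.00).

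CD40, the receptor for CD40 ligand of T cells, had a lowest level of 35.2, a median of 61.0 and a highest level of 68.5 CPM in POU2AF1 knockdown libraries, and 44.5, 59.7 and 109 CPM in POU2F2 knockdown libraries. The control libraries had 45.4, 48.9, 62.4 and 62.5 CPM. The groups overlapped, with differences of 0.02 ± 0.26 and 0.23 ± 0.23 (both adjusted p = 1.00). TNFRSF14 likewise overlapped, at 5.37 to 11.7 CPM after POU2AF1 knockdown and 6.85 to 14.7 CPM after POU2F2 knockdown, against 5.02 to 12.7 CPM in control libraries. Its differences were -0.04 ± 0.34 and 0.13 ± 0.30 (both adjusted p = 1.00).

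Neither death receptor gene was called in OCI-Ly7. FAS, which has a death domain, had a lowest level of 8.53, a median of 9.86 and a highest level of 11.5 CPM after POU2AF1 knockdown, and 7.79, 10.9 and 26.5 CPM after POU2F2 knockdown. The control libraries had 6.98, 8.13, 9.90 and 9.68 CPM. The groups overlapped, and the highest value, in POU2F2 knockdown replicate 1, stood apart. The FAS differences were 0.23 ± 0.30 and 0.52 ± 0.27 (both adjusted p = 1.00). TNFRSF10B, which encodes the TRAIL receptor DR5, had 36.6 to 61.3 CPM after POU2AF1 knockdown and 35.4 to 80.4 CPM after POU2F2 knockdown, against 32.8 to 61.2 CPM in control libraries. The groups overlapped, and TNFRSF10B differed by 0.08 ± 0.26 and 0.08 ± 0.23 (both adjusted p = 1.00). TNFRSF10B has close paralogs, and reads that match several of them were divided by estimate.

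TNFRSF8 encodes CD30, a receptor of activated lymphocytes. It had 1 to 15 reads after POU2AF1 knockdown and 2 to 24 reads after POU2F2 knockdown, against 3 to 15 reads in control libraries. These counts overlapped and leave little precision. The POU2F2 difference was 1.74 ± 0.52 (adjusted p = 1.00), the POU2AF1 difference -0.17 ± 0.57 (adjusted p = 1.00), and POU2F2 against POU2AF1 knockdown 1.90 ± 0.59 (adjusted p = 0.53). Without a batch term the POU2AF1 difference was 0.44.

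In SUDHL4 most of the receptor genes were called, with values that rest on few libraries. After POU2AF1 knockdown CD40, CD27, TNFRSF13B, TNFRSF13C and TNFRSF14 rose and TNFRSF8 fell, 6 of the 8 tested, where 36.8% of 16973 genes were called, 18% higher and 18.8% lower. After POU2F2 knockdown CD40, CD27, TNFRSF13B, TNFRSF13C and TNFRSF14 rose and none fell, where 7.35% of genes were called, 4.79% higher and 2.56% lower. The median log2 difference of the 8 was 0.77 after POU2AF1 knockdown and 0.41 after POU2F2 knockdown, against 0.01 over all genes in either comparison. The control and the POU2AF1 knockdown are 1 library each, and the spread comes from the 2 POU2F2 knockdown libraries, with 1 residual degree of freedom. In a fit of all libraries of both lines (the 22-library fit), where OCI-Ly7 gives most of the spread, none of the 8 was called in either comparison, against 1.66% and 0.0951% of 18918 genes.

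TNFRSF13C had 311 CPM in the SUDHL4 POU2AF1 knockdown library and 158 and 165 CPM in the POU2F2 knockdown libraries, against 104 CPM in the control library. The POU2AF1 knockdown library was the highest and the control library the lowest. The differences from control were 1.61 ± 0.11 (adjusted p = 1.7e-13) and 0.67 ± 0.10 (adjusted p = 1.1e-05), with adjusted p of 0.39 and 1.00 in the 22-library fit. TNFRSF13B was scarce in this line, with 33 reads after POU2AF1 knockdown and 34 and 22 reads after POU2F2 knockdown, against 5 reads in the control library. All 3 knockdown libraries were above the control in CPM, and the log2 differences were 2.58 ± 0.76 after POU2AF1 knockdown (adjusted p = 0.0071) and 2.60 ± 0.70 after POU2F2 knockdown (adjusted p = 0.017). In the 22-library fit the adjusted p was 0.052 and 0.23.

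TNFRSF14 had 15.4 CPM in the POU2AF1 knockdown library and 4.78 and 5.12 CPM in the POU2F2 knockdown libraries, against 3.16 CPM in the control library. It rose by 2.30 ± 0.23 on the log2 scale after POU2AF1 knockdown (adjusted p = 5.2e-10) and by 0.68 ± 0.21 after POU2F2 knockdown (adjusted p = 0.036), with 0.099 and 1.00 in the 22-library fit. CD40 had 55.6 CPM after POU2AF1 knockdown and 40.4 and 41.9 CPM after POU2F2 knockdown, against 30.9 CPM in the control library. CD27 had 254 CPM after POU2AF1 knockdown and 204 and 203 CPM after POU2F2 knockdown, against 161 CPM in the control library. For both costimulatory receptors the control library was the lowest and the POU2AF1 knockdown library the highest. CD40 rose by 0.87 ± 0.11 and 0.45 ± 0.10 (adjusted p = 1.6e-07 and 0.0031), and CD27 by 0.68 ± 0.11 and 0.37 ± 0.10 (adjusted p = 8.4e-06 and 0.013). In the 22-library fit these adjusted p were 0.551 and 1.00 for CD40 and 0.575 and 1.00 for CD27.

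TNFRSF8 moved the other way after POU2AF1 knockdown, with 7 reads, and had 29 and 43 reads after POU2F2 knockdown, against 62 reads in the control library. Its differences were -3.24 ± 0.64 (adjusted p = 0.00012) and -0.63 ± 0.45 (adjusted p = 0.50), and the first had an adjusted p of 0.13 in the 22-library fit. FAS had 1.61 CPM after POU2AF1 knockdown and 1.68 and 3.67 CPM after POU2F2 knockdown, against 2.45 CPM in the control library, with differences of -0.59 ± 0.51 (adjusted p = 0.42) and 0.16 ± 0.43 (adjusted p = 0.91). The POU2F2 replicates lay on either side of the control. TNFRSF10B had 76.2 CPM after POU2AF1 knockdown and 71.1 and 79.5 CPM after POU2F2 knockdown, against 82.2 CPM in the control library. Its difference was -0.09 ± 0.11 (adjusted p = 0.55) and -0.09 ± 0.09 (adjusted p = 0.66).

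Other B cell genes and markers of other cells moved with these receptors in SUDHL4. All 7 B cell markers were higher after POU2AF1 knockdown and 6 of 7 after POU2F2 knockdown, with a summed level of 3692 TPM after POU2AF1 knockdown and 2748 to 2832 TPM after POU2F2 knockdown, against 1937 TPM in the control library. The 22-library fit called 3 of the 7 after POU2AF1 knockdown and 0 after POU2F2 knockdown. Of 8 germinal centre markers 2 were higher and 4 lower after POU2AF1 knockdown, and 1 higher and 3 lower after POU2F2 knockdown, with a summed level of 564 TPM after POU2AF1 knockdown and 756 to 811 TPM after POU2F2 knockdown, against 941 TPM in the control library. The 22-library fit called 1 of these 8 higher and 1 lower after POU2AF1 knockdown and 0 after POU2F2 knockdown. Of 4 tested plasma cell markers 2 were higher and 2 lower after POU2AF1 knockdown, and 2 higher and 1 lower after POU2F2 knockdown. Of the 6 tested T and NK cell markers 5 were higher after POU2AF1 knockdown and 4 after POU2F2 knockdown. The whole list of 12 summed to 38.9 TPM after POU2AF1 knockdown and 23.6 to 24.8 TPM after POU2F2 knockdown, against 8.53 TPM in the control library, mostly from TRAC. The T cell gene CD3D was at 0 reads in all 4 SUDHL4 libraries. Of 8 myeloid markers 2 were tested and both were higher after POU2AF1 knockdown and 1 after POU2F2 knockdown, and the list summed to 5.27 TPM after POU2AF1 knockdown and 1.86 to 2.81 TPM after POU2F2 knockdown, against 0.95 TPM in the control library. The 22-library fit called none of the plasma, T and NK or myeloid markers after either knockdown. Over all genes 18% were higher and 18.8% lower after POU2AF1 knockdown, and 4.79% higher and 2.56% lower after POU2F2 knockdown. The part of these genes in the receptor results was not tested.

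**Figure D3:**
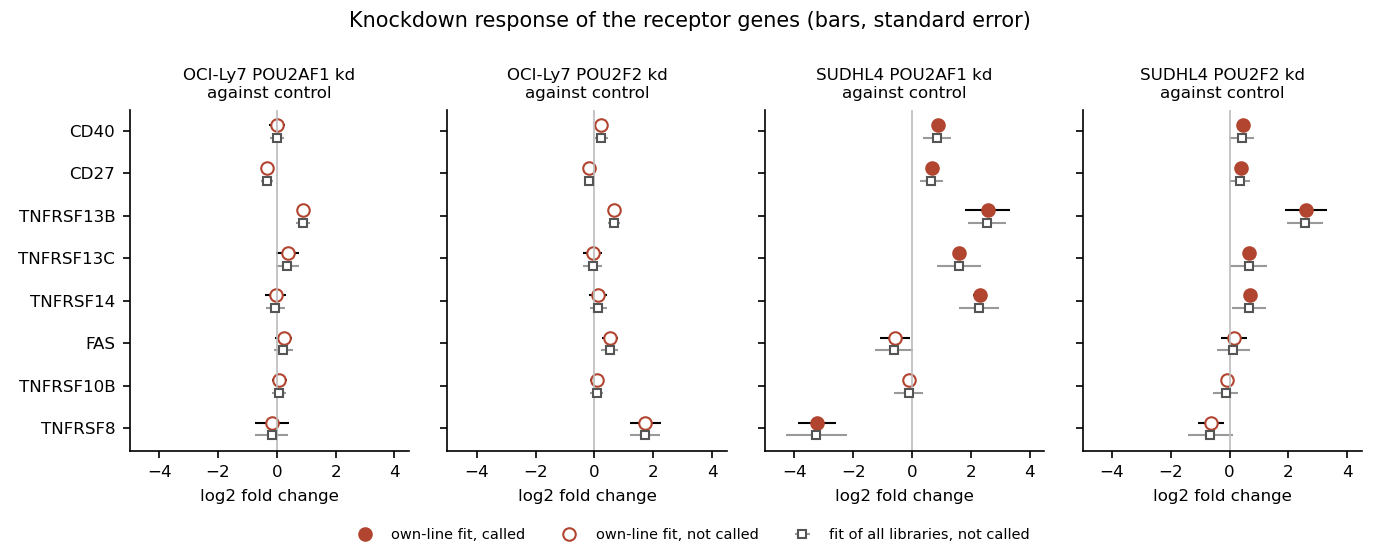
Difference from control of the 8 tested receptor genes on the log2 scale (horizontal axis) in each line and knockdown; circles are fits of one line, filled where called, squares are the 22-library fit, and bars are standard errors. In SUDHL4 5 genes lie above 0 and are called in either knockdown by the fit of that line, and no gene is called in the 22-library fit.

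Whether the response differs between the lines was tested in the 22-library fit as the OCI-Ly7 difference minus the SUDHL4 difference. None of the 8 genes was called for POU2AF1 knockdown, against 0.798% of genes, and none for POU2F2 knockdown, against 0.0106%. For POU2AF1 knockdown the line difference was -2.33 ± 0.74 for TNFRSF14 (adjusted p = 0.18), -1.65 ± 0.69 for TNFRSF13B (adjusted p = 0.39), -0.99 ± 0.44 for CD27 (adjusted p = 0.43) and 3.07 ± 1.16 for TNFRSF8 (adjusted p = 0.30). With the series block TNFRSF14 and CD27 were called (-2.21 and -0.94, adjusted p = 0.010 and 0.038), where 10.3% of genes were.

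The control libraries of OCI-Ly7 and SUDHL4 were compared in the same fit. TNFRSF13B and FAS were higher in OCI-Ly7 and CD27 was lower, 3 of 8 called, against 23.5% of 18918 genes, 11% higher and 12.5% lower. TNFRSF13B had 202 to 294 reads in the 4 OCI-Ly7 control libraries, against 5 reads in the SUDHL4 control library, a difference of 5.86 ± 0.61 (adjusted p = 7.0e-07). CD27 differed by -2.30 ± 0.32 (adjusted p = 2.2e-05). FAS differed by 1.76 ± 0.60 (adjusted p = 0.040). This FAS call was lost without OCI-Ly7 control replicate 1, 8 or 9 (adjusted p = 0.0553, 0.0536 and 0.0521). It was also lost with no filter on low counts (adjusted p = 0.0503). A block of replicate numbers was set within each line, so that fit cannot estimate a difference between the lines. TNFRSF10B had -1.14 ± 0.41 (adjusted p = 0.053), TNFRSF8 -2.01 ± 0.82 (adjusted p = 0.086), TNFRSF14 1.23 ± 0.60 (adjusted p = 0.16), TNFRSF13C -1.23 ± 0.62 (adjusted p = 0.17) and CD40 0.84 ± 0.45 (adjusted p = 0.20). With the series block all 8 were called, where 44.5% of genes were. Some counts of called receptor genes moved with other settings. With repeated files kept apart 1 was called in OCI-Ly7 POU2AF1 knockdown (3.68% of genes), 8 between the control lines (45.7% of genes) and 3 in the line difference of the POU2AF1 response (10.2% of genes). That setting counts repeats of a library as replicates and understates the spread, so its calls are no added evidence. DESeq2 called 1 in the line difference of the POU2AF1 response (3.94% of genes) and 2 in SUDHL4 POU2F2 knockdown (3.13% of genes).

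The ligands and the signalling genes around these receptors were read from the same fits. In OCI-Ly7 POU2AF1 knockdown 1 of 8 tested ligand genes was called, TNFSF8, which encodes the ligand of CD30. It had 580 to 777 reads after POU2AF1 knockdown, against 979 to 1353 reads in control libraries, and fell by 0.73 on the log2 scale (SE 0.15, adjusted p = 0.025). None of 11 other TNF receptor genes, 21 TRAF adaptor genes, 10 death signalling genes, 13 NF-kB genes, 9 CD40 response genes or 7 receptor shedding proteases was called there. After POU2F2 knockdown none of these lists had a called gene in OCI-Ly7, as was the case for all genes.

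In SUDHL4 5 of 8 tested ligand genes were higher after POU2AF1 knockdown and 3 were not called, where 18% of all genes were higher. The 8 had a median difference of 1.64 on the log2 scale, against 0.01 over all genes. TNF had 44.3 TPM after POU2AF1 knockdown and a mean of 13.4 TPM after POU2F2 knockdown, against 2.44 TPM in the control library. LTB, a subunit of the ligand of the lymphotoxin beta receptor, had 526 and 137 TPM, against 65.7 TPM in the control library. The rises after POU2AF1 knockdown of TNF (4.46 ± 0.17), LTB (3.24 ± 0.13), LTA (2.64 ± 0.22) and the CD27 ligand gene CD70 (1.76 ± 0.20) were also called in the 22-library fit, with adjusted p of 0.0072, 0.00256, 0.0385 and 0.0385. BTLA, the partner of TNFRSF14, rose by 1.53 ± 0.40 and lost the call there (adjusted p = 0.11). After POU2F2 knockdown TNF, LTB, LTA and TNFSF8 rose, 4 of 8, where 4.79% of all genes were higher, and none was called in the 22-library fit.

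Of 11 other TNF receptor genes tested in SUDHL4, 4 were higher and 4 lower after POU2AF1 knockdown and 1 higher after POU2F2 knockdown, none of them called in the 22-library fit. RELT rose in both, by 0.58 and 0.32 on the log2 scale, and TNFRSF17, which encodes the APRIL receptor BCMA of plasma cells, fell after POU2AF1 knockdown (-0.73). Of 12 tested genes that CD40 signals are known to raise in B cells, 7 were higher and 1 lower after SUDHL4 POU2AF1 knockdown, and 5 higher and 1 lower after POU2F2 knockdown. SLAMF1, an adhesion receptor, rose by 2.76 ± 0.12 after POU2AF1 knockdown, CD83 by 1.15 ± 0.11 and the costimulatory ligand gene CD86 by 1.17 ± 0.12. Of these 3 SLAMF1 held the call in the 22-library fit (adjusted p = 0.012). Of 21 TRAF adaptor and regulator genes 8 were higher and 2 lower, among them TRAF1 (1.18 ± 0.13) and the NF-kB-inducing kinase gene MAP3K14 (0.69 ± 0.13), and of 11 death signalling genes 4 were higher, with CASP8 at 1.02 ± 0.15 and CASP10 at 3.33 ± 0.42, and 2 lower. Of 13 NF-kB genes 4 were higher, NFKBIA, BCL3, RELB and NFKBIE, and 2 lower, REL and CHUK. Of 7 proteases of receptor shedding 4 were higher, among them NCSTN, FURIN and ADAM10. These counts stand beside 36.8% of all genes called after POU2AF1 knockdown, 18% higher and 18.8% lower, and 7.35% after POU2F2 knockdown. In the 22-library fit none of the TRAF, NF-kB and protease genes was called. Of the 11 death signalling genes that fit called 1, higher, after SUDHL4 POU2AF1 knockdown.

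Between the control libraries several genes around the receptors differed, 9 of 21 TRAF adaptor and regulator genes among them, 3 higher and 6 lower in OCI-Ly7. Of all 18918 genes 23.5% were called there, 11% higher and 12.5% lower. TRAF3, the adaptor that restrains the alternative NF-kB pathway downstream of CD40 and the BAFF receptor, had 1.88 TPM in OCI-Ly7 control libraries, against 21.1 TPM in the SUDHL4 control library (-3.30 ± 0.33). BIRC3, which acts with TRAF3, had 63.1 TPM, against 6.66 TPM (3.07 ± 0.37), and TNFAIP3, a feedback inhibitor, 15 TPM, against 1.38 TPM (2.98 ± 0.35). The CD27 ligand gene CD70 was higher in OCI-Ly7 (3.76 ± 0.43), where CD27 was lower. TNFRSF1A, the other TNF receptor gene, had 25.4 TPM in OCI-Ly7 control libraries, against 0.23 TPM in the SUDHL4 control library, so of the receptors for TNF the one among the 9 genes was near 0 in both lines.

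Transcript shares were computed from deposited TPM, which Salmon divides between transcripts by estimate, and were not tested. A share is taken over the transcripts that join the 2 neighbouring exons either through the exon or directly, and leaves out all others, among them CD40 transcripts that hold exon 6 beside other exons. In OCI-Ly7 POU2AF1 knockdown the transcripts counted had a mean of 16.3 TPM of 16.6 for TNFRSF13B, 7.41 of 8.45 for FAS and 28.2 of 59.9 for CD40, where the share compares the transcript CD40-202 with CD40-201 alone. TNFRSF13B transcripts with exon 2 made up 53.9 ± 8.72% in OCI-Ly7 POU2AF1 knockdown (n = 6) and 62.0 ± 5.41% in POU2F2 knockdown (n = 8), against 64.2 ± 8.02% in control libraries (n = 4). Of those counted without exon 2, only TNFRSF13B-206 is annotated as protein-coding. It averaged 19.1% of the gene's TPM in POU2AF1 knockdown and 3.01% in POU2F2 knockdown, against 9.63% in control libraries. The retained-intron transcript TNFRSF13B-205 averaged 20.0% and 24.4%, against 18.2%. The share without exon 2 is therefore not the share of a shorter receptor. FAS transcripts with exon 6 made up 83.8 ± 7.09% in POU2AF1 knockdown and 82.5 ± 6.20% in POU2F2 knockdown, against 91.3 ± 10.0% in control libraries. CD40-202, the one of these with exon 6, made up 89.8 ± 5.88% in POU2AF1 knockdown and 85.3 ± 7.55% in POU2F2 knockdown, against 88.2 ± 3.51% in control libraries. The groups overlapped for all 3 exons. By estimated reads in place of TPM the TNFRSF13B share averaged 69.3% in POU2AF1 knockdown and 75.9% in POU2F2 knockdown, against 76.9% in control libraries.

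**Figure D4:**
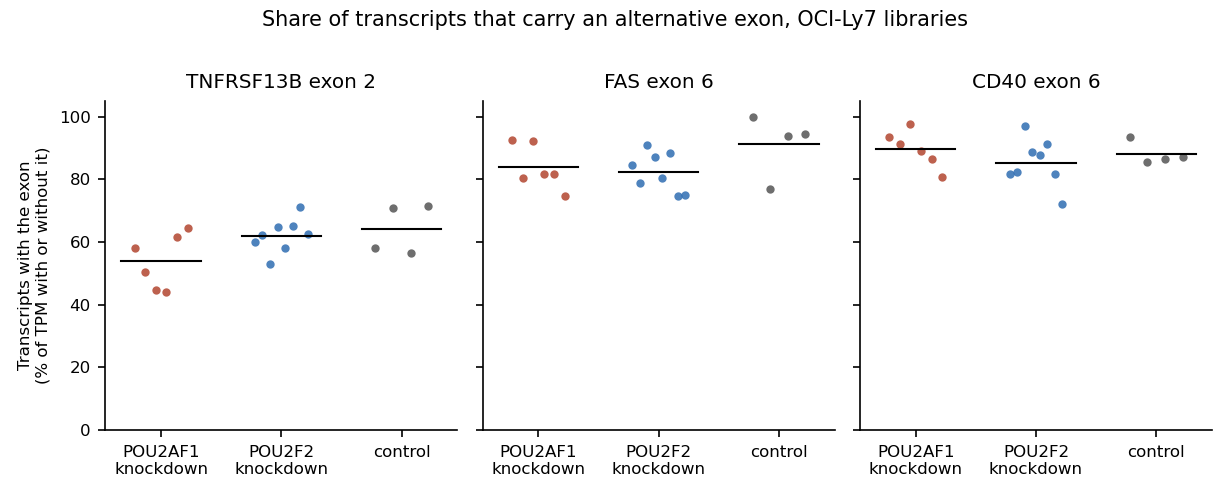
Share of transcripts that carry TNFRSF13B exon 2, FAS exon 6 or CD40 exon 6 (vertical axis, percent of the TPM of transcripts that join the neighbouring exons through it or directly, for CD40 those of CD40-202 and CD40-201 alone) in OCI-Ly7 libraries; points are libraries and bars are group means. The 3 groups overlap in each panel.

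Protein-coding transcripts took a median of 88.6% of the TPM of CD27 over 18 OCI-Ly7 libraries, 75.0% of TNFRSF10B, 63.0% of CD40, 62.8% of TNFRSF13B and 57.1% of FAS. TNFRSF14 stood lowest of the 7 genes expressed above 1 TPM, at 36.5%, with a range of 22.7% to 56.8%. In its control libraries the transcripts annotated as retained introns took more of the TPM than the protein-coding ones. TNFRSF13C has 1 annotated transcript in these files.

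For the 3 genes called between the control lines, the genes that varied most like them over the 18 OCI-Ly7 libraries were listed, by Pearson's r of log2 CPM with batch means removed, among 10220 genes. The libraries share groups and series, so r describes these libraries and carries no p. TNFRSF13B was nearest to SORT1 (r = 0.872), TBC1D27P (r = 0.863) and SP140 (r = 0.85). TBC1D27P is a pseudogene that the annotation places over part of TNFRSF13B on the same strand, so reads of the pair may not be told apart there. CD27 was nearest to SLC7A8 (r = 0.878), QPCTL (r = 0.853) and ZNF213-AS1 (r = 0.839). FAS was nearest to CYLD (r = 0.920), which encodes a deubiquitinase of TNF receptor signalling, HERPUD2 (r = 0.906) and KLRK1 (r = 0.899).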

How the data were processed

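RNA was sequenced from OCI-Ly7 and SUDHL4 cells with paired-end reads from stranded mRNA libraries, per the labels' protocols. Estimated counts and TPM per transcript were deposited by the authors, and the submitters' processing notes name fastp, Salmon 1.5.1 and GRCh38.p13, while the annotation release is not given in the sources used here. Transcripts were matched to GENCODE release 29 and summed per gene, which held 98.4% to 98.9% of the reads of a file. The estimated counts were rounded to whole numbers.

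Files of a group that differed by little more than sampling noise (ratio below 1.5, a value set after the repeats were seen) were merged: 3 pairs had ratios of 1.12 to 1.13, and 53 other pairs had 2.53 to 102. A further OCI-Ly7 control file, number 3, was left out because adding files 1 and 2 gave its value to within 2 reads in 93.3% of 26588 genes.

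Genes were tested with edgeR 4.0.16 (R 4.3.3, limma 3.58.1; TMM scaling, quasi-likelihood test, filterByExpr with a minimum count of 10, Benjamini-Hochberg adjusted p below 0.05). OCI-Ly7 was fitted with a batch term, SUDHL4 alone, and the lines together in a 22-library fit. The fits were tested on simulated data. Depth in genes was 26325730 to 59431931 reads per library. Alternatives were DESeq2 1.42.0, other scaling, no filter, files kept apart, other batch and series terms, the replicate number as a block, and libraries left out. All 9 receptor genes are named. Genes of the other lists are named from those with the smallest adjusted p, up to 6 per list and comparison, and the likeness list gives 3 genes for each receptor gene called in a comparison with OCI-Ly7 libraries. Receptors, lists and tests were chosen with earlier results of these data known. Single results for some genes of these lists are not reported here.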

Additional observations from a re-analysis of the deposited data

Results flagged for a closer look

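In 27 sets of libraries with 4 to 8 members each, 5 had a highest library far from the rest, and chance gives about 1 in 20. OCI-Ly7 POU2F2 knockdown replicate 1 stood apart in CD40, at 108.9 CPM with the next at 68.8 CPM, and in FAS, at 26.5 CPM with the next at 13.9 CPM. In POU2AF1 knockdown, TNFRSF13B was 16.9 CPM in replicate 5, with the next at 12.2 CPM, and TNFRSF10B was 61.3 CPM in replicate 6, with the next at 45.8 CPM. TNFRSF8 was 0.284 CPM in OCI-Ly7 control replicate 1, with the next at 0.13 CPM.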

How the results depend on the processing

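Of the 8 tested receptor genes, 1 was called after OCI-Ly7 POU2AF1 knockdown with DESeq2, with repeated files kept apart, with the series block, with POU2F2 knockdown replicate 3 in batch 1, and with both of the last together (chosen after seeing the data). SUDHL4 POU2AF1 knockdown gave 0 in the 22-library fit, and SUDHL4 POU2F2 knockdown 2 with DESeq2 and 0 in the 22-library fit. Between the control lines 8 were called with files kept apart and 8 with the series block. For the line difference of the POU2AF1 response 1 was called with DESeq2, 3 with files kept apart and 2 with the series block. Keeping files apart counts repeats of a library as replicates, which understates the spread. With libraries left out in turn the counts ran from 0 to 1 for OCI-Ly7 POU2AF1 knockdown (0 to 2 with the series block, chosen after seeing the data), 0 to 0 for POU2F2 knockdown (0 to 1 with the series block), 0 to 0 for SUDHL4 POU2F2 knockdown in the 22-library fit, and 2 to 3 between the control lines. The share of TNFRSF13B with exon 2 in POU2AF1 knockdown was 69.3% by estimated reads and 53.9% by TPM, and by estimated reads 75.9% in POU2F2 knockdown and 76.9% in control libraries. The cause of these changes was not tested.

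Some differences changed sign. In OCI-Ly7 POU2AF1 knockdown TNFRSF8 was 0.44 without a batch term and -0.47 to 0.46 with the series block and libraries left out. With the replicate number as a block, TNFRSF14 was 0.65 after POU2AF1 knockdown, TNFRSF13C 0.34 after POU2F2 knockdown, and POU2F2 against POU2AF1 knockdown gave 0.023 for TNFRSF13B and -0.21 for FAS. Without a batch term that TNFRSF13B difference was 0.0094. With the series block and libraries left out, TNFRSF13C was 0.07 to 0.37 after POU2F2 knockdown (0.32 without control replicate 8). CD27 was -0.10 to 0.04 there, at 0.032 without POU2F2 knockdown replicate 7, 0.036 without control replicate 1 and 0.032 without control replicate 8. FAS after SUDHL4 POU2F2 knockdown was -0.54 to 0.58 in the 22-library fit. The replicate block called 0 receptor genes after OCI-Ly7 POU2AF1 knockdown (TNFRSF13B 0.75, adjusted p = 0.123). Same-numbered libraries had correlations of -0.37 to 0.51 after group means were removed. Batch was left in and differently numbered pairs were not set beside them, so these values cannot decide whether the numbers pair the libraries. SUDHL4 with a library left out has no residual degrees of freedom alone, so this was done in the 22-library fit. TNFRSF8 and TNFRSF1B in both lines and TNFRSF13B in SUDHL4 are limited by depth.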
